A study of Mus musculus with 27 samples.

Results

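The 40 genes described here encode the SR proteins, the heterogeneous nuclear ribonucleoproteins (hnRNPs) named as such, and the subunits of splicing factor 3 (SF3), and their transcript levels were followed in liver, omental adipose tissue and skeletal muscle of young and old mice in which deletion of the transcription factor gene *Mlx* had been induced. Members were chosen by symbol from the 36333 genes of the deposited table: 11 Srsf genes, 20 Hnrnp genes, 3 Sf3a genes and 6 Sf3b genes, leaving out pseudogenes. All mice carried the same genotype, labelled *Mlx*KO, from crosses of mice with a tamoxifen-inducible Cre (the allele Gt(ROSA)26Sortm1(cre/ERT2)Tyj in the B6.129 strain) with *Mlx* Flox/Flox mice, and all had received 5 daily intraperitoneal injections of tamoxifen at weaning. Cre was expressed from the ROSA26 locus in all tissues, with LoxP sites around exons 3 to 6 of *Mlx*. This design was meant to remove the gene body-wide. By the study's own PCR, however, clearly more *Mlx* transcript remained in skeletal muscle than in liver or adipose tissue, at both ages. The tissues compared here therefore differed in how far *Mlx* was lost. The mice were male, and the 27 samples comprised, for each tissue, 4 mice aged 5 months and 5 aged 20 months. The age label of the old samples is 20 months. The codes in their titles begin with X18, as those of the 5-month samples begin with X5. The study's own list of *Mlx* measurements also gives 18 months for mice whose numbers end in the digits of these samples. The old mice may thus have been 18 months old, and the age label is used here. All 3 tissues of the younger age came from the same 4 mice, called A, B, C and D here in the order of their numbers in the labels. The samples at 20 months carried separate numbers (16, 17, 18, 19 and 74 in liver, 36 to 40 in adipose tissue, 56 to 60 in muscle) and were treated as separate mice. Because WT samples were not analysed here, every value concerns the difference between ages or tissues within *Mlx*KO mice.

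Pre-mRNA splicing is carried out by the spliceosome, which assembles on each intron from small nuclear ribonucleoprotein particles (snRNPs). SF3A and SF3B are protein complexes of the U2 snRNP. *Sf3b1*, the largest SF3B subunit, grips the pre-mRNA around the branch point, and *Sf3b5*, one of the smallest, binds within the same complex. SR proteins carry an RNA-binding domain and a tail rich in arginine and serine, and as a rule promote the use of exons to which they bind. HnRNPs coat nascent transcripts, and many of them repress nearby splice sites, so that the balance of SR proteins and hnRNPs sets much of alternative splicing. Both families hold ultraconserved exons that carry premature stop codons, through which many of them limit their own level by nonsense-mediated decay.

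Of the 40 members, *Sf3b1*, *Sf3b3*, *Srsf4* and *Srsf11* were called lower at 20 than at 5 months (adjusted p under 0.05) in 2 tissues each. No other member was called lower in as many, and their promoters are printed for that reason. Each window runs from 250 bases before to 50 bases after the most upstream start in the table of RefSeq promoters used here (GRCm38.p6). The RefSeq gene spans of *Srsf4* and *Srsf11* begin further upstream, at positions 131873530 and 158036667, inside these windows. Capitals mark CCGGAA, a core bound by ETS factors, and GGGCGG, the GC box, on either strand.
*Sf3b1* (chr1:55027429-55027728, minus strand): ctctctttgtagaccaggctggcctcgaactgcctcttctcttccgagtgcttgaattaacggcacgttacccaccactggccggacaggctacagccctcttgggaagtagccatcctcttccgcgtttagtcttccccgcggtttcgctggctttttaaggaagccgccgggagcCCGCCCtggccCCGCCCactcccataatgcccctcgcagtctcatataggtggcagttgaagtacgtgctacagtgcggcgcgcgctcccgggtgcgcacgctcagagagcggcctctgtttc
*Sf3b3* (chr8:110846754-110847053, minus strand): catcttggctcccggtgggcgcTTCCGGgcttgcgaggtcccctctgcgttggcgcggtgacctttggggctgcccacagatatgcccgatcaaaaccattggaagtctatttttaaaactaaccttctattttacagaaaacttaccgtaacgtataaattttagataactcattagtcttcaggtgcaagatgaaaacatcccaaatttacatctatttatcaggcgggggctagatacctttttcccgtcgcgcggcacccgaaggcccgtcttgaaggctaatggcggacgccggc
*Srsf4* (chr4:131873387-131873686, plus strand): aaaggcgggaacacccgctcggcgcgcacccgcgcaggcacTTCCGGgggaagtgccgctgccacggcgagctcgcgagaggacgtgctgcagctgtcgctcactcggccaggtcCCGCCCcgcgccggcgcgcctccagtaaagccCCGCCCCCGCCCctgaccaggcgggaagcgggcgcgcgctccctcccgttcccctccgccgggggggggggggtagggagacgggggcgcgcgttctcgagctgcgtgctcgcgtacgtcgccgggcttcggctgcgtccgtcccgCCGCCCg
*Srsf11* (chr3:158036557-158036856, minus strand): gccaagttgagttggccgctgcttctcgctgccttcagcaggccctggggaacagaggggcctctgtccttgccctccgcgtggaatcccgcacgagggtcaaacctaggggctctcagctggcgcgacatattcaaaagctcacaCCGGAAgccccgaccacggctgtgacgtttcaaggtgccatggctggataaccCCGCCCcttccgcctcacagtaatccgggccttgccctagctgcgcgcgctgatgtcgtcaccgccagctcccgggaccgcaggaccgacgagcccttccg

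None of the 4 windows held CACGTG, the E-box letters to which *Mlx* and its partners bind in many target genes. The carbohydrate response element of tandem E-box-like parts, which the paper names as their classical site, was not searched for. The table of RefSeq promoters used here had an entry for 36 of the 40 members, and none for *Hnrnpll*, *Hnrnpul2*, *Sf3b4* and *Sf3b5*. CACGTG stood in 4 of the 36 (*Hnrnpa3*, *Hnrnpd*, *Hnrnph2* and *Hnrnpm*), or 11.1%, beside 7.24% of the promoters of 27025 genes. CCGGAA was found in 18 of the 36 and in 15.2% of all promoters, and GGGCGG in 27 of the 36 and in 35.9%. CCAAT occurred in 18 of the 36 and in 38.02% of all promoters. The members' promoters were also richer in G and C, with a median of 63.3% against 52.7% over all genes. GGGCGG and CCGGAA are themselves built mostly of G and C, and the comparison was not adjusted for it.

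Values are normalised read counts, that is, reads per gene scaled by 1 factor per sample, and a difference between ages is given on the log2(value + 1) scale with its standard error. Samples held 14384695 to 25673919 reads on genes. The values give 1 number per gene, so that reads from deleted and remaining exons of *Mlx* cannot be told apart and the deletion could not be checked from them. *Mlx* stood at 24.2 to 32.4 in liver at 5 months and 18.8 to 27.8 at 20 months, and at 7.04 to 13.9 over the adipose and muscle samples. Of the marker genes of the labelled tissues, 5 hepatocyte genes summed to 39841 or more in each liver and to 304 or less elsewhere, 5 adipocyte genes to 5886 or more in each adipose sample, and 5 muscle fibre genes to 120264 or more in each muscle. The liver of 1 mouse stood apart, namely mouse 74 at 20 months, with the lowest hepatocyte sum (39841 against 75424 to 91339.7 in the other 20-month livers) and the highest macrophage sum (594 against 166 to 492). In the muscle of mouse B at 5 months, the heat shock gene *Hspa1b* reached 4038, against 106 to 1071 in the other 5-month muscles and 11.4 to 47.01 at 20 months.

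With age, more of the 39 tested genes lay lower than higher in each tissue. A gene is said to fall or rise between ages where its adjusted p was under 0.05, and none fell in all 3. By direction alone, 19 members lay below 0 in all 3 tissues and 2 above 0. The share of all genes that did so was not counted. In liver, 7 members fell, of which 4 encode SF3 subunits, and 1 rose. In adipose tissue, 3 SR protein genes fell, and 1 SR protein gene and 1 SF3B gene rose. In skeletal muscle, 3 SR protein and 2 SF3B genes fell, and 2 SF3B genes and 1 hnRNP gene rose. The 7 genes that fell and 1 that rose in liver compare with 9.79% and 10% of all 12654 genes tested. For adipose tissue, the shares over all 14005 genes were 9.35% lower and 9.75% higher, and for muscle, over 12720 genes, 10.1% and 9.13%. Each tissue tested 39 members, and only *Srsf12* was left out by the filter on low values, since it stood at 0 to 0.466 in all 27 samples.

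Most members lay below 0. In liver, 32 of 39 had a log2 change below 0, with a median of -0.20 against 0.00 over all genes. In adipose tissue, 31 of 39 were below 0, with a median of -0.17 against 0.01. In muscle, 27 of 39 were below 0, with a median of -0.09 against 0.02. The count below 0 depended on scaling, which also moved the median of all genes. Samples were rescaled on recovered reads outside the 20 most abundant genes, in place of the authors' factors. Then 20 of 39 lay below 0 in liver (median -0.03, all genes 0.15) and 20 in muscle (median -0.01, all genes 0.09). The members' median thus stayed below that of all genes in both tissues. In each of these tissues, 3 members were then called higher and 3 lower. The summed level of all members ran from 4148 to 4348 in liver at 5 months and from 3485 to 3996 at 20 months, without overlap. In adipose tissue the sums were likewise separate, 4119 to 4467 against 3483 to 3890.3, while those of muscle overlapped, 3817 to 4446 against 3536 to 3928. As a share of all reads on genes, a scale that the most abundant genes of a sample also set, the members took 0.308% to 0.314% against 0.285% to 0.366% in liver (mouse 74 highest), 0.637% to 0.799% against 0.543% to 0.668% in adipose tissue and 0.336% to 0.358% against 0.324% to 0.337% in muscle, so that the ages overlapped in each tissue on this scale. The values of single members did not overlap between ages for 13 of 39 in liver, for 8 in the adipose samples and for 9 in muscle, where 19.1%, 17.4% and 17.3% of all genes did the same. In whole tissue, fewer cells of a type and less RNA per cell cannot be told apart. Across tissues, 4 members were called lower in 2 of them, 7 in 1 and none in all 3. Of the 40, 26 were called nowhere, *Srsf12* among them.

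**Figure D1:**
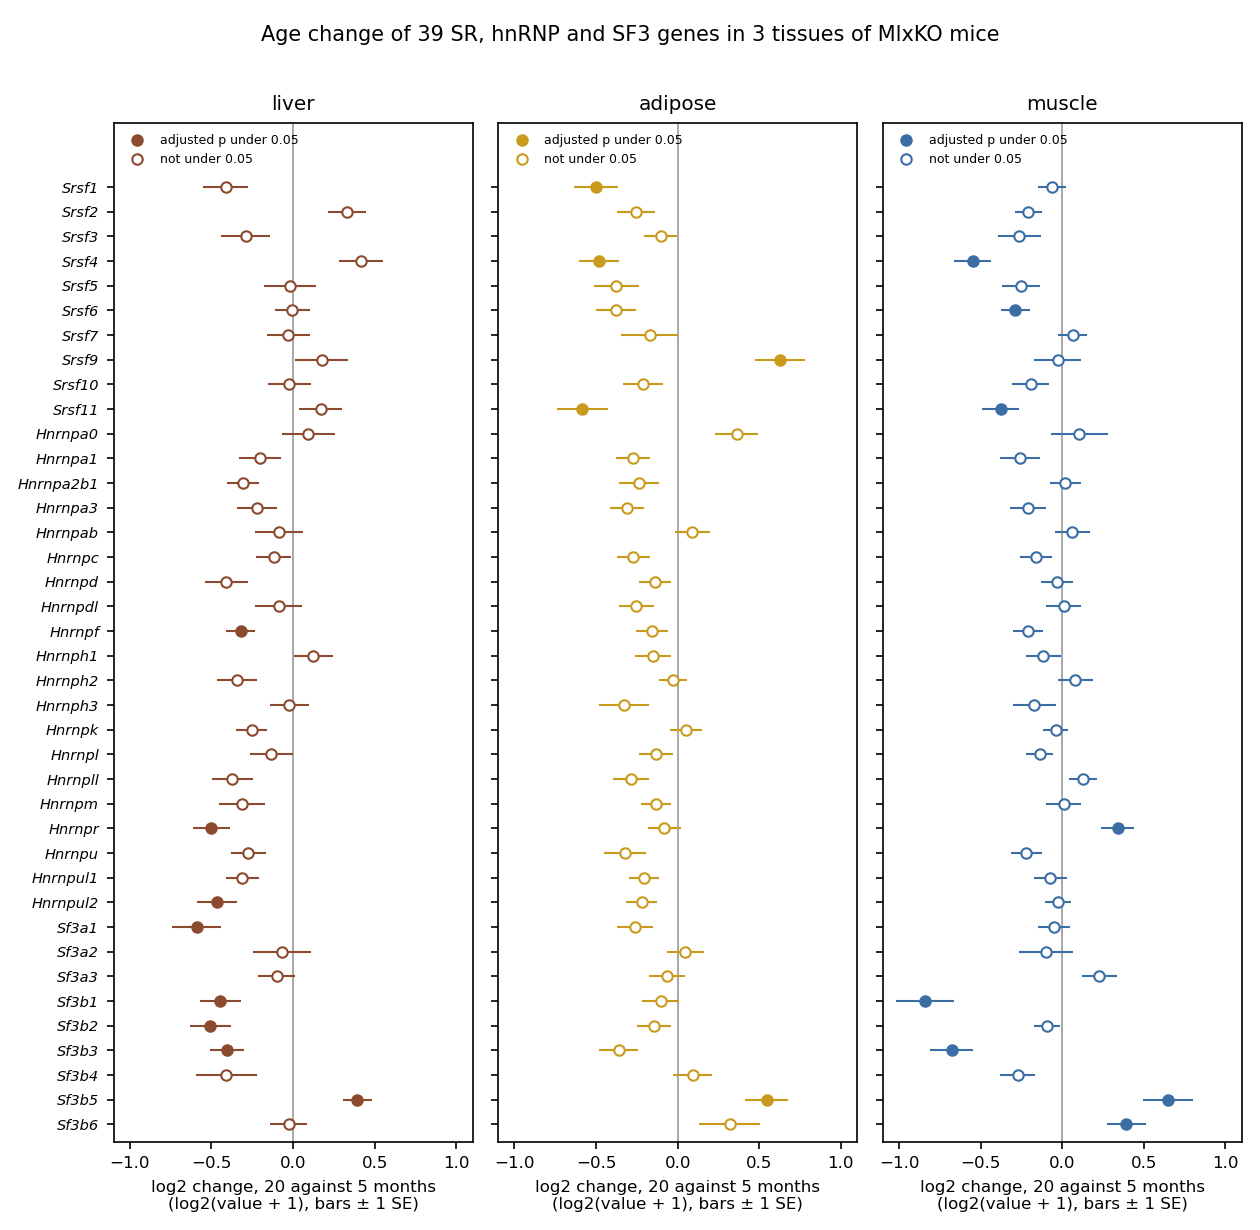
Log2 change between 20 and 5 months (x axis, on log2(value + 1), bars ± 1 SE) of the 39 tested members (y axis) in liver, adipose tissue and muscle, with filled points for an adjusted p under 0.05. Most points lie left of 0, *Sf3b5* is filled on the right in each of the 3 tissues, and *Hnrnpr* is filled on the left in liver and on the right in muscle.

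The number of members called depended on single mice. In liver it was 2 without mouse B or mouse 18, 3 without mouse A, 5 without mouse D and 17 without 16, and without mouse 74, the liver that stood apart, it was 11 (9 lower, 2 higher). In adipose tissue it was 0 without mouse A, B, 37, 38 or 39, with 10 to 18 members then at an unadjusted p under 0.05 by limma, 2 without 40, 8 without 36 and 10 without mouse D. In muscle it was 4 without mouse A, B, 57, 59 or 60 and 5 without mouse D or 56. In the 5 adipose fits without a call, calls over all genes fell as well, from 2674 to between 397 and 1036. For the other fits they are not given here, so these counts cannot be set against all genes. Of the 21 calls of a member in a tissue, 5 passed under all 11 other ways of processing the data and with any 1 of the 9 samples left out: *Sf3b5* in liver, and *Sf3b1*, *Sf3b3*, *Sf3b5* and *Srsf4* in muscle. For *Sf3b5*, the correction for transcript length among these 11 used 3841 bases, although the gene spans 734.

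The 6 SF3B genes moved in both directions. *Sf3b1*, whose protein contacts the branch point region, fell in muscle by the largest amount of any member. Its values were 348, 560.5, 279 and 328 at 5 months (mice A, B, C and D, the order used throughout) and 258, 194, 196, 191 and 185 at 20 months (56 to 60). All 5 old muscles lay below all 4 young ones, and mouse B, the highest, was the one with the highest *Hspa1b*. The log2 change was -0.84 ± 0.18, adjusted p = 0.0109, and without mouse B it was -0.64 and still passed. In liver, *Sf3b1* stood at 177, 231, 163 and 161 and then at 136, 133, 119, 124 and 153 (mice 16, 17, 18, 19 and 74), again without overlap (-0.45 ± 0.13, adjusted p = 0.0333). This call was lost without mouse A, B, 17, 18 or 19 (adjusted p up to 0.0851). In adipose tissue the ages overlapped, with means of 202 ± 20.2 and 187 ± 14.9 (SD, n = 4 and 5).

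*Sf3b3*, a scaffold subunit of the same complex, followed *Sf3b1*. In muscle it was 52.8, 59.8, 42.03 and 41.04 at 5 months and 33.7, 32.8, 26.8, 31.3 and 25.4 at 20 months (-0.68 ± 0.13, adjusted p = 0.00807). In liver it was 56.8, 65.97, 55.4 and 64.5 and then 47.1, 48.6, 43.6, 49.4 and 39.3 (-0.40 ± 0.10, adjusted p = 0.0236), and the call was lost without mouse B, D or 18 (adjusted p up to 0.0698). The ages were apart in both tissues. In adipose tissue *Sf3b3* changed by -0.36 ± 0.12, which did not pass (adjusted p = 0.0609). *Sf3b2*, which binds the pre-mRNA next to the branch point, fell in liver from 165, 179.7, 151 and 150.4 to 123, 122, 115, 124 and 86.1 (-0.51 ± 0.12, adjusted p = 0.0213), where mouse 74 was the lowest and the other 4 old livers lay within 115 to 124. Without A, B or 18 its adjusted p rose to at most 0.0641. In muscle, *Sf3b2* had means of 114 ± 9.46 and 107 ± 2.09 and was not called.

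*Sf3b5* was called higher in all 3 tissues, the only member of which this held. In liver its values were 25.5, 26.9, 26.02 and 24.2 at 5 months and 35.3, 35.1, 32.6, 34.7 and 32.2 at 20 months (0.39 ± 0.09, adjusted p = 0.0154). In adipose tissue they were 18.7, 15.7, 23.3 and 21.01 and then 28.6, 26.7, 35.2, 28.3 and 26.6 (0.55 ± 0.13, adjusted p = 0.0283), and in muscle 15.4, 13.7, 23.8 and 18.2 and then 33.3, 26.5, 24.3, 26.8 and 29.1 (0.65 ± 0.15, adjusted p = 0.0155). In no tissue did the ages overlap, although in muscle the lowest old value, 24.3, was close to the highest young one, 23.8. *Sf3b6*, another subunit of SF3B, rose in muscle from 6.61, 7.18, 9.63 and 7.11 to 10.5, 9.91, 9.76, 10.4 and 10.7 (0.39 ± 0.12, adjusted p = 0.0422). This call was lost in 8 of the 9 fits that left out 1 sample, all but that without mouse C (adjusted p up to 0.108). *Sf3b4* was not called in any tissue, with a change in liver of -0.41 ± 0.19 that spread widely among old mice (30.5, 29.4, 24.98, 27.4 and 15.4, mouse 74 lowest), and 49.3% of its 50-base words occur in another gene, mostly the pseudogene Gm7935.

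Of the 3 SF3A genes, *Sf3a1* fell in liver from 39.9, 50.1, 36.001 and 33.7 to 30.3, 27.9, 25.2, 28.1 and 19.3 (-0.59 ± 0.15, adjusted p = 0.0248), without overlap and with mouse 74 lowest. It lost its call without mouse A, B or 18 (adjusted p up to 0.0719). In muscle, *Sf3a1* was not called, with means of 21.6 ± 2.31 and 20.7 ± 0.935. *Sf3a2* and *Sf3a3* were called in no tissue, with changes between -0.10 and 0.23. The summed level of the 9 SF3 genes did not overlap between ages in liver, 527 to 662 against 398 to 473, nor in muscle, 578 to 829.8 against 436 to 526, and overlapped in adipose tissue. As a share of reads it overlapped in liver as well, 0.0383% to 0.0474% against 0.0347% to 0.0418%, and not in muscle, 0.0468% to 0.0669% against 0.0390% to 0.0449%.

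**Figure D2:**
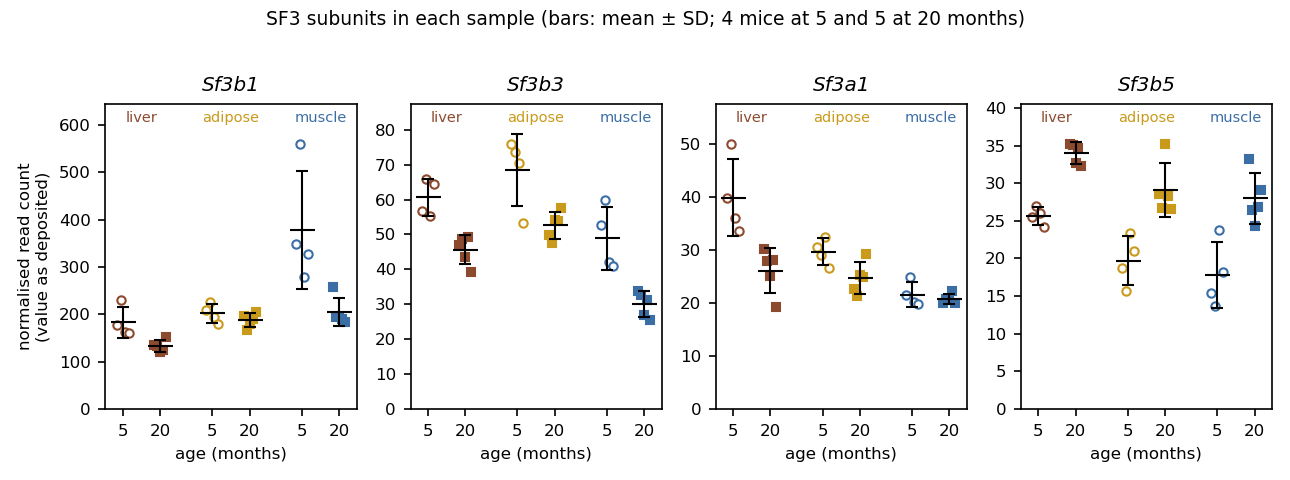
Normalised read counts (y axis, from 0) of *Sf3b1*, *Sf3b3*, *Sf3a1* and *Sf3b5* in each sample at 5 months (open circles, 4 mice) and 20 months (filled squares, 5 mice) in liver, adipose tissue and muscle, with bars for the mean ± SD. *Sf3b1* and *Sf3b3* lie lower at 20 months in liver and muscle, *Sf3a1* in liver, and *Sf3b5* lies higher in every tissue.

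Among the 10 SR protein genes tested, none passed in liver, 4 passed in adipose tissue and 3 in muscle. *Srsf4*, a large SR protein with a long arginine-serine tail, fell in muscle from 55.9, 64.8, 55.8 and 57.9 to 43.5, 42.7, 42.97, 39.9 and 30.9 (-0.55 ± 0.11, adjusted p = 0.00973) and in adipose tissue from 52.99, 60.4, 48.4 and 40.8 to 38.7, 32.2, 37.6, 32.4 and 37.9 (36 to 40, -0.48 ± 0.12, adjusted p = 0.0329), without overlap in either. In liver it pointed the other way, with 45.9, 46.6, 34.4 and 36.2 at 5 months and 48.8, 57.8, 58.9, 63.1 and 45.1 at 20 months, a change of 0.42 ± 0.14 that just missed the threshold (adjusted p = 0.0509). *Srsf11*, an SR protein that works with other SR-related factors on small exons, fell in adipose tissue from 157, 188, 118 and 116 to 107, 86.97, 92.1, 89.1 and 97.9 (-0.58 ± 0.16, adjusted p = 0.0347). It also fell in muscle, from 117, 121, 90.2 and 90.5 to 76.2, 74.1, 89.8, 84.3 and 75.4 (-0.38 ± 0.11, adjusted p = 0.0401). The ages did not overlap in these tissues, but in both the young mice A and B stood well above C and D, which lay close to the highest old value. In liver *Srsf11* was not called (0.17 ± 0.13, adjusted p = 0.384), with mouse 74 the highest at 91.6.

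*Srsf1*, a general splicing activator, fell in adipose tissue from 171, 193, 136 and 144 to 126, 105, 105, 99.5 and 129 (-0.50 ± 0.14, adjusted p = 0.0373), without overlap. Its change in liver was -0.41 ± 0.14 (adjusted p = 0.0571), not called, with ranges that met at mouse 16 (113). *Srsf6* fell in muscle from 86.3, 93.8, 84.1 and 88.4 to 77.5, 66.8, 79.7, 66.4 and 70.6 (-0.29 ± 0.09, adjusted p = 0.0407). The gap between the ages was narrow, and the call was lost without mouse A, B, D, 57, 59 or 60 (adjusted p up to 0.0976). *Srsf9*, a short SR protein, was the SR gene that rose, in adipose tissue, from 15.2, 12.1, 16.2 and 19.4 to 21.1, 25.3, 31.1, 24.05 and 21.8 (0.62 ± 0.15, adjusted p = 0.0288), again without overlap. In muscle *Srsf9* was not called, with means of 7.41 ± 1.43 and 7.18 ± 0.809. All 5 adipose calls were lost without mouse A, B, 37, 38 or 39, and those of *Srsf1*, *Srsf4* and *Srsf11* without 40 as well (adjusted p up to 0.102). In muscle, the call of *Srsf11* was lost without mouse A, B or any 1 of the 5 old mice (adjusted p up to 0.101).

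The SR sum overlapped between ages in liver, 739.6 to 828 at 5 months and 719 to 868 at 20 months. In adipose tissue it was 977 to 1174 against 778 to 928, and in muscle 779.5 to 829 against 633 to 734, both without overlap. As a share of reads the SR genes were higher at 20 months in liver without overlap (0.0560% to 0.0593% against 0.0598% to 0.0881%, mouse 74 highest), overlapped in adipose tissue (0.151% to 0.210% against 0.121% to 0.159%) and were lower in muscle without overlap (0.0646% to 0.0705% against 0.0581% to 0.0634%). *Srsf2*, *Srsf3*, *Srsf5*, *Srsf7* and *Srsf10* were called between ages in no tissue, with changes from -0.38 (*Srsf5* in adipose tissue) to 0.33 (*Srsf2* in liver).

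Of the SR genes without a call in adipose tissue, *Srsf5* went from 187, 196, 204 and 258 to 193, 158, 161, 162 and 137 in adipose tissue (-0.38 ± 0.14, adjusted p = 0.0741). *Srsf6* in adipose tissue went from 144, 146, 113 and 112 to 111, 88.6, 102, 90.1 and 101, without overlap and short of the threshold (-0.38 ± 0.12, adjusted p = 0.0571), while in liver its means were 107 ± 9.43 and 107 ± 12.03. *Srsf3*, the smallest SR protein, lay below 0 in each tissue (-0.29 ± 0.15, -0.10 ± 0.10 and -0.26 ± 0.13 in liver, adipose tissue and muscle), with liver values at 20 months of 106, 66.1, 68.7, 80.6 and 69.97. *Srsf7* and *Srsf10*, an SR protein known for its response to heat shock, changed by -0.03 ± 0.13 and -0.02 ± 0.13 in liver, -0.17 ± 0.18 and -0.21 ± 0.12 in adipose tissue, and 0.06 ± 0.09 and -0.19 ± 0.11 in muscle.

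Of the 20 hnRNP genes, 3 fell in liver, none was called in adipose tissue (0 by limma, with 9 at an unadjusted p under 0.05) and 1 rose in muscle. *Hnrnpr*, an RNA-binding protein close in sequence to *Syncrip*, changed in opposite directions. In liver its values went from 40.9, 39.4, 43.8 and 46.3 to 29.2, 30.4, 24.6, 34.4 and 31.2 (-0.50 ± 0.11, adjusted p = 0.0154), and in muscle from 24.97, 23.1, 29.3 and 27.2 to 34.7, 32.8, 29.5, 33.8 and 35.7 (0.34 ± 0.10, adjusted p = 0.0361). The ages did not overlap in either tissue, but in muscle the lowest old and highest young values nearly met. In adipose tissue *Hnrnpr* was at 39.3 ± 3.89 and 37.1 ± 2.71 (SD, n = 4 and 5). The liver call passed with any 1 sample left out, and the muscle call was lost in 7 of 9 such fits, those without mouse A, B, D, 56, 57, 59 or 60 (adjusted p up to 0.0907). Pseudogenes share 24.1% of its 50-base words.

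*Hnrnpul2*, a relative of the scaffold-binding *Hnrnpu*, fell in liver from 163, 172, 148 and 159 to 125, 126, 118, 127 and 88.5 (-0.47 ± 0.12, adjusted p = 0.0249), with mouse 74 lowest and the other old livers between 118 and 127. *Hnrnpf*, which binds runs of G near splice sites, fell from 262, 282, 261 and 259.5 to 220.1, 224, 207, 213 and 199.9 (-0.32 ± 0.09, adjusted p = 0.0291). Both sets of values were separate between ages. The call of *Hnrnpul2* was lost without mouse A, B, D or 18 and that of *Hnrnpf* in 7 of 9 fits, all but those without 16 or 74 (adjusted p up to 0.0806). For *Hnrnpf*, 51.8% of 50-base words are shared, mostly with the pseudogene Gm6430, so that the authors' counting may have divided its reads.

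The 7 genes of the hnRNP A/B and D group, the core packaging proteins and their relatives, had a median change of -0.20 in liver, and of -0.24 and 0.01 in adipose tissue and muscle, and none was called. *Hnrnpa2b1*, a core packaging protein that also reads m6A marks, had liver values of 348, 351, 344 and 351 at 5 months and 309, 266, 255, 313 and 269 at 20 months, which did not overlap although the test missed the threshold (-0.31 ± 0.10, adjusted p = 0.0510). In muscle its means were 433 ± 45.9 and 438 ± 29.1. *Hnrnpd* (AUF1), which binds AU-rich elements, came as close in liver (-0.41 ± 0.13, adjusted p = 0.0503), with 71.02, 64.01, 77.5 and 74.4 and then 69.3, 49.1, 50.8, 58.4 and 43.96, where mouse 74 was the lowest. *Hnrnpa1*, a repressor of splice sites, was lower in the mean in each tissue (-0.20 ± 0.13 in liver, -0.27 ± 0.10 in adipose tissue, -0.26 ± 0.12 in muscle) without a call, and 54.1% of its 50-base words occur in other genes. *Hnrnpa0* was the member of the group that lay above 0 in all 3 tissues, at 0.09 ± 0.16, 0.36 ± 0.13 and 0.11 ± 0.17.

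The 3 genes of the hnRNP U group lay below 0 in every tissue. *Hnrnpu* went from 321, 341, 271 and 266 to 241, 262, 231, 247 and 248 in liver and *Hnrnpul1* from 100.04, 100.3, 105 and 104 to 86.6, 82.8, 78.7, 95.6 and 70.1. Neither overlapped between ages there, and neither passed (adjusted p = 0.0873 and adjusted p = 0.0509). *Hnrnpl*, which binds CA repeats, changed by -0.13 ± 0.13, -0.13 ± 0.10 and -0.14 ± 0.08 in liver, adipose tissue and muscle. Its paralog *Hnrnpll*, known for the switch of CD45 exons in lymphocytes, changed by -0.37 ± 0.12, -0.29 ± 0.11 and 0.13 ± 0.09, with liver values of 42.3, 47.2, 37.4 and 34.4 and 36.4, 30.9, 29.2, 26.2 and 31.6 that overlapped. *Hnrnpm* changed by -0.31 ± 0.14 in liver, where the old mice ran from 72.6 (mouse 74) to 126, and *Hnrnpc*, which keeps splicing from intronic poly-U tracts, by -0.12 ± 0.11.

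The other 17 hnRNP genes were called between ages in no tissue. Their changes ran from -0.41 (*Hnrnpd* in liver) to 0.36 (*Hnrnpa0* in adipose tissue). In liver, 15 of the 17 were below 0, in adipose tissue 14 and in muscle 10. *Hnrnpk*, a poly(C)-binding hnRNP, and *Hnrnph2*, a G-run binder like *Hnrnpf*, had liver values that were separate between ages without passing the test: *Hnrnpk* went from 317, 296, 349 and 345 to 281, 288, 263, 261 and 275 (adjusted p = 0.0805). *Hnrnph2* had 5-month values of 71.6, 71.1, 69.4 and 68.7 and 20-month values of 62.5, 55.8, 60.7, 57.7 and 41.1 (adjusted p = 0.0677), with mouse 74 lowest, while its relative *Hnrnph1* lay above 0 in liver (0.12 ± 0.12). The hnRNP sum did not overlap between ages in liver (2840.2 to 2952 against 2248 to 2655) or adipose tissue (2629 to 2768 against 2266 to 2533), and did in muscle. As a share of reads the hnRNP genes overlapped in liver (0.205% to 0.215% against 0.191% to 0.236%) and adipose tissue (0.407% to 0.495% against 0.357% to 0.428%) too.

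Whether the age change differed between tissues was tested directly, in a fit over all 27 samples. Between liver and adipose tissue, 5 of 39 members differed, beside 15.6% of all 15572 genes. Between liver and muscle, 8 differed, beside 17.5%, and between adipose tissue and muscle 3, beside 14.7%. With the mouse as a replicate block the counts were 5, 9 and 4, because *Srsf11* (liver against muscle) and *Hnrnpll* (adipose tissue against muscle) also passed. The contrasts share samples, so that a gene that stands out in 1 tissue can appear in 2 of them. Leaving out 1 sample gave 3 members between liver and adipose tissue without liver C, D or 18 or adipose A, B or 37, and 5 between liver and muscle without liver 74. Between adipose tissue and muscle it gave 1 or 2 without any sample but adipose C and 36. With samples rescaled without the 20 most abundant genes, 3 differed between liver and muscle (*Hnrnpr*, *Srsf4* and *Srsf2*).

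*Srsf4* and *Srsf2* set liver apart from both other tissues. For *Srsf4*, the change in liver exceeded that in adipose tissue by 0.90 ± 0.18, adjusted p = 0.00167 and that in muscle by 0.97 ± 0.18, adjusted p = 0.000804. *Srsf2*, an activator of exon inclusion, was 111, 117, 115 and 129 in liver at 5 months and 170.3, 121, 148, 138 and 172 at 20 months, against 182, 181, 175 and 139 and then 143, 123, 156, 142 and 141 in adipose tissue. Its values overlapped between ages in both, and no single tissue gave a call for *Srsf2*, but the change in liver exceeded that in adipose tissue by 0.59 ± 0.14, adjusted p = 0.00735 and that in muscle by 0.54 ± 0.14, adjusted p = 0.0115. For *Srsf11* the liver change exceeded the adipose change by 0.75 ± 0.20, adjusted p = 0.0110. The *Srsf4*, *Srsf2* and *Srsf11* differences between liver and adipose tissue, and those of *Srsf4* and *Srsf2* between liver and muscle, passed with any 1 of the 18 samples left out and under every rescaling tried (adjusted p up to 0.0313).

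*Hnrnpr* differed in all 3 pairs of tissues. The liver change minus the muscle change was -0.84 ± 0.14, adjusted p = 0.000334. Liver minus adipose tissue was -0.42 ± 0.14, adjusted p = 0.0389, and adipose tissue minus muscle was -0.42 ± 0.14, adjusted p = 0.0394. The first of these passed with any 1 sample left out, and the others did so in 11 and 7 of 18 fits. *Sf3b1* fell further in muscle than in adipose tissue, the adipose change minus the muscle change being 0.74 ± 0.21, adjusted p = 0.0213, which passed in all 18 such fits and was at an adjusted p of 0.0560 with samples rescaled without the 20 most abundant genes. The change in liver lay below that in muscle for *Hnrnpll* (-0.50 ± 0.14, adjusted p = 0.0189), *Hnrnpul2* (-0.44 ± 0.13, adjusted p = 0.0196), *Sf3a1* (-0.54 ± 0.17, adjusted p = 0.0312), *Hnrnph2* and *Sf3b2*. The differences of *Hnrnph2* and *Sf3b2* were -0.43 and -0.41 with adjusted p values of 0.0424 and 0.0429 and, like that of *Sf3a1*, did not pass without mouse 74. Each of them passed in 6 of the 18 fits that left out 1 sample, and that of *Sf3a1* in 13. *Hnrnpll* and *Hnrnph2* were called between ages in neither tissue, and both lay above 0 in muscle (0.13 and 0.08). *Hnrnpk* in liver minus adipose tissue was -0.31 ± 0.10, adjusted p = 0.0433, and *Srsf9* in adipose tissue minus muscle was 0.65 ± 0.22, adjusted p = 0.0498. The first of these passed in 8 of 18 fits with 1 sample left out and not after rescaling (adjusted p = 0.531), and the other in 5 of 18. *Sf3b5* differed in no pair of tissues, with differences of -0.15 ± 0.18, -0.25 ± 0.18 and -0.10 ± 0.18.

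**Figure D3:**
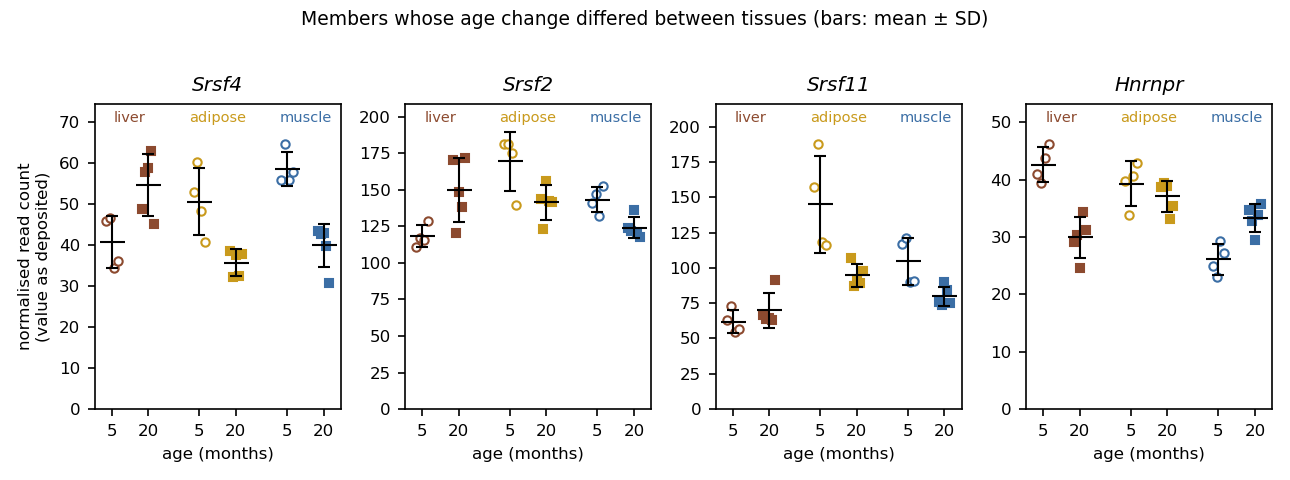
Normalised read counts (y axis, from 0) of *Srsf4*, *Srsf2*, *Srsf11* and *Hnrnpr* in each sample at 5 months (open circles, 4 mice) and 20 months (filled squares, 5 mice), with bars for the mean ± SD. *Srsf4* lies higher at 20 months in liver and lower in adipose tissue and muscle, and *Hnrnpr* lies lower in liver and higher in muscle.

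Levels of the members were also compared between tissues at each age. At 5 months, 24 of 39 members had different levels in liver and adipose tissue, 31 in liver and muscle, and 21 in adipose tissue and muscle, where 76.4%, 72.9% and 72.8% of all genes did. At 20 months the counts were 14, 27 and 21, beside 74.5%, 77.2% and 76%. These counts depend on how samples of different tissues are scaled. For mouse B at 5 months, the deposited values summed to 1395310 (liver), 1240400 (muscle) and 559419 (adipose). Rescaling drops the authors' factors behind these sums and uses reads outside the 20 most abundant genes. Those genes took 25.9%, 27.4% and 9.56% of reads in these samples. Leaving them out by itself raises liver and muscle values against adipose values. The opposite shift below therefore came with dropping the authors' factors. With samples rescaled on reads outside the 20 most abundant genes, 36 members were called between liver and adipose tissue at 5 months, all lower in liver, and 36 between adipose tissue and muscle, all higher in adipose tissue, with medians over all genes of -0.85 and 0.75. Between liver and muscle, 23 were then called (10 higher, 13 lower, median over all genes -0.18).

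The member with the widest spread of tissue means at 5 months was *Srsf9*, at 26.9 ± 5.31 in liver, 15.7 ± 3.02 in adipose tissue and 7.41 ± 1.43 in muscle (SD, n = 4). *Sf3b6* had the same order, at 21.98 ± 2.92 in liver, 10.8 ± 3.04 in adipose tissue and 7.63 ± 1.36 in muscle, and so did *Hnrnpf*, at 266 ± 10.8 in liver, 205 ± 4.94 in adipose tissue and 128 ± 9.03 in muscle. Each step from liver over adipose tissue to muscle passed the test for these 3 genes. After rescaling, the lower level in muscle than in the other tissues still passed. Liver minus adipose tissue went from 0.74 to -0.18 for *Srsf9* and from 0.99 to 0.08 for *Sf3b6*, and no longer passed. For *Hnrnpf* it went from 0.38 to -0.59 and passed in the opposite direction (adjusted p = 1.03e-06). *Hnrnph1*, a close relative of *Hnrnpf*, was lowest in liver, at 48.8 ± 5.07 in liver, 99.3 ± 5.38 in adipose tissue and 119 ± 17.1 in muscle, and remained so after rescaling. Its difference between adipose tissue and muscle, -0.25 ± 0.12, did not pass (adjusted p = 0.0566), did with the mouse as a replicate block (adjusted p = 0.0430) and turned to 0.44 after rescaling. *Srsf11* was also lowest in liver under both scalings, at 61.8 ± 8.14 in liver, 145 ± 34.5 in adipose tissue and 105 ± 16.7 in muscle. The log2 spread of its tissue means was 1.20 at 5 months and 0.44 at 20 months.

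The members with the narrowest spread were *Hnrnpu*, a scaffold-associated hnRNP, at 299 ± 37.2 in liver, 309 ± 48.8 in adipose tissue and 321 ± 32.9 in muscle, *Hnrnpul1*, at 102 ± 2.59 in liver, 94.4 ± 8.01 in adipose tissue and 96.96 ± 9.35 in muscle, and *Hnrnpa3*, at 259 ± 41.6 in liver, 267 ± 5.99 in adipose tissue and 232 ± 35.9 in muscle. None of their 9 comparisons between tissues at 5 months passed on the deposited scale, whereas after rescaling all 3 were lower in liver than in adipose tissue, with log2 differences of -1.002, -0.84 and -1.02. Of the 50-base words of *Hnrnpa3*, 90.97% are shared with other genes, mostly pseudogenes. Per kilobase of transcript, *Hnrnpa2b1* had the highest level of all members in each tissue at 5 months, 212 in liver, 203 in adipose tissue and 263 in muscle. After *Srsf12*, *Sf3a1* was the lowest per kilobase in adipose tissue and muscle (6.03 and 4.39), and in liver *Hnrnph3* (6.34) and then *Sf3a1* (8.11).

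**Figure D4:**
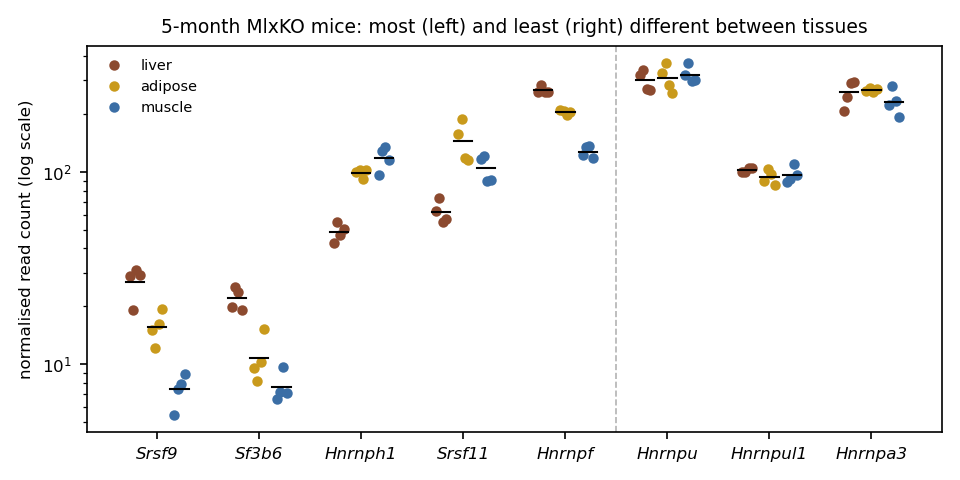
Normalised read counts (y axis, log scale) at 5 months of the 5 members with the widest and the 3 with the narrowest spread of tissue means, in the 4 mice of each tissue (points) with their mean (lines). *Srsf9*, *Sf3b6* and *Hnrnpf* are lowest in muscle and *Hnrnph1* and *Srsf11* in liver, while the points of *Hnrnpu*, *Hnrnpul1* and *Hnrnpa3* overlap on the deposited scale.

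Transcript length moved with the age change across all genes. Genes of up to 1250 bases had a median log2 change of 0.21, 0.28 and 0.20 in liver, adipose tissue and muscle, and genes over 5000 bases of -0.22, -0.14 and -0.07. The members that rose include 3 of the shortest, *Sf3b5* (734 bases), *Srsf9* (1162) and *Sf3b6* (1180), and those that fell include some of the longest, *Sf3b1* (6195 bases) and *Hnrnpul2* (5118). With a smooth trend on length and GC content removed from each sample, members still lay mostly below 0 (31, 34 and 28 of 39). *Sf3b1* and *Sf3b3* passed in muscle. *Sf3b5* passed in each tissue, but it entered this fit with a reference transcript of 3841 bases and not with its 734. Its pass therefore does not test whether its rise goes with its short length. In the same fit *Sf3a1*, *Hnrnpul2*, *Sf3b1* and *Sf3b3* lost their calls in liver (adjusted p = 0.0732 for *Sf3a1*), and *Sf3b6* in muscle. The total called was then 7 in liver, 11 in adipose tissue (9 lower) and 14 in muscle (12 lower).

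**Figure D5:**
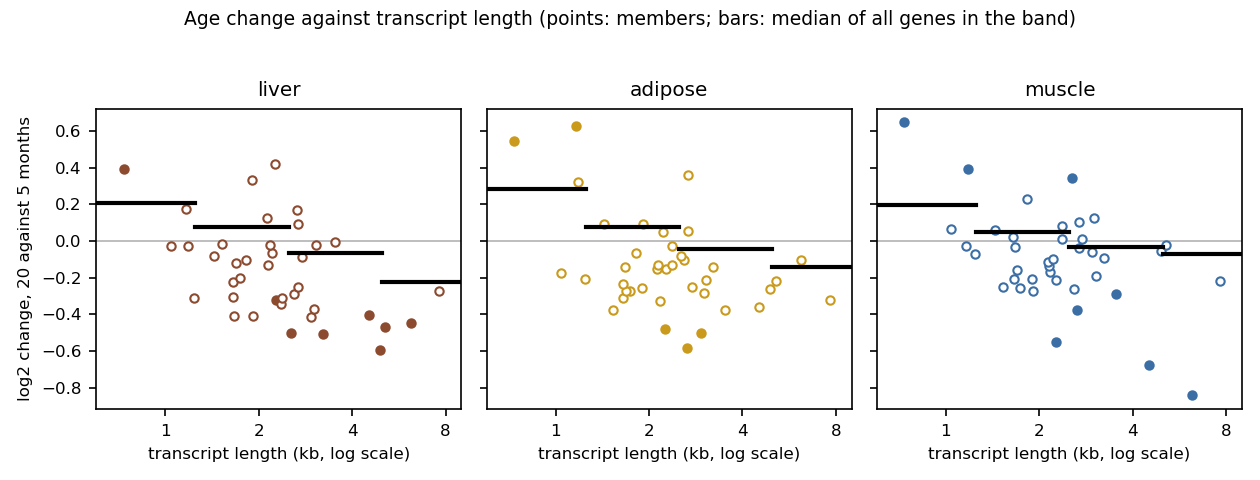
Log2 change between 20 and 5 months (y axis) of the 39 members (points, filled for an adjusted p under 0.05) against transcript length (x axis, log scale) in each tissue, with bars for the median of all genes in 4 bands of length. In each tissue the bars step down from short to long genes, and most members (31, 31 and 29 of 39) lie below the bar of their band.

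Of 116 other genes of splicing and its regulation, 15 fell and 5 rose in liver (109 tested), 20 fell and 3 rose in adipose tissue (113 tested), and 7 fell and 5 rose in muscle (112 tested). Their medians were -0.06, -0.23 and -0.05. Over all genes, 9.79% fell and 10% rose in liver, 9.35% and 9.75% in adipose tissue, and 10.1% and 9.13% in muscle. The counts of the single lists below are to be read beside these same shares. The Sm and LSm proteins, small ring-forming proteins around which snRNPs are built, had no gene that fell: of 15, 3 rose in liver (*Snrpn*, 1.12, *Lsm4*, 0.51, and *Lsm2*, 0.41), 1 in adipose tissue (*Snrpn*, 0.95) and 3 in muscle (*Snrpd3*, 0.78, *Lsm3*, 0.54, and *Snrpn*, 0.29). With the trend on length and GC content removed, *Snrpn* in liver and *Snrpd3* in muscle passed, and *Snrpn* in the other tissues, *Lsm4*, *Lsm2* and *Lsm3* did not. The large proteins of the U4/U6.U5 tri-snRNP, which brings the catalytic snRNAs, went the other way in liver, where 4 of 14 fell, among them the helicase *Snrnp200* (-0.79), *Prpf8* (-0.66) and *Prpf6* (-0.50). In adipose tissue 1 fell (*Prpf6*, -0.52), and in muscle none of the 14 passed by limma (0, with 2 at an unadjusted p under 0.05).

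Of 18 SR-like and SR-related genes, 7 fell in adipose tissue, led by the nuclear speckle genes *Srrm2* (-0.77) and *Srrm1* (-0.77) and by *Scaf4* (-0.59), while 3 fell in liver (*Scaf8*, -0.46, *Scaf11*, -0.44, and *Srrm1*, -0.37) and 1 in muscle (*Srrm1*, -0.39). Of the kinases and importers of SR proteins, 3 of 10 tested fell in adipose tissue (*Srpk1*, -0.45, *Clk4*, -0.43, and the importer *Tnpo3*, -0.31). In liver *Tnpo1* fell (-0.45) and *Clk3* rose (0.37), and in muscle *Clk1* fell (-0.38). Of 11 hnRNPs under other symbols, 3 fell in adipose tissue (*Rbmx*, -0.73, *Pcbp2*, -0.35, and *Tardbp*, -0.35), 1 in liver (*Syncrip*, -0.37) and none in muscle (0 by limma, with 1 at an unadjusted p under 0.05).

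Among 16 proteins of the U1 and U2 snRNPs and U2AF, the helicase *Dhx15* fell in liver (-0.60) and adipose tissue (-0.49). The U1 gene *Snrnp70* fell in muscle (-0.53) and rose in liver (0.48). Its muscle call passed under all 11 other ways of processing and with any 1 of 9 samples left out, and its liver call under 5 of the 11 and in 2 of 9 such fits (adjusted p up to 0.110). *Luc7l* fell in adipose tissue (-0.43) and muscle (-0.41), *Luc7l3* in adipose tissue (-0.44), and *Sf1*, which marks the branch point before SF3B does, in muscle (-0.45). The tissue-restricted regulators gave 4 lower genes in liver, led by *Ptbp3* (-0.47), *Esrp2* (-0.45) and *Celf1* (-0.32). In adipose tissue *Mbnl3* rose (1.13) and *Nova2* (-0.83) and *Celf2* (-0.61) fell, and in muscle *Mbnl1* rose (0.27) and *Nova1* fell (-0.83). Of 10 nonsense-mediated decay factors, *Upf3b* fell in adipose tissue (-0.46) and *Upf2* rose in muscle (0.35), with none called in liver (0 by limma, 2 at an unadjusted p under 0.05).

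Most of these calls of other splicing genes also depended on single mice. With any 1 of 9 samples left out, the calls of *Snrpn*, *Snrnp200*, *Dhx15* and *Esrp2* in liver, of *Mbnl3* in adipose tissue and of *Snrpd3*, *Snrnp70*, *Sf1* and *Nova1* in muscle passed. The others named passed in 2 to 6 of 9 fits in liver, in 2 to 7 in adipose tissue (2 for *Srrm2*, *Scaf4*, *Clk4*, *Pcbp2* and *Tardbp*, 7 for *Rbmx*) and in 1 to 7 in muscle.

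Markers of other cells moved with age beside these results. In liver, 4 of 4 B cell genes rose (summed level 1.24 to 6.48 at 5 months and 6.63 to 14.03 at 20 months), as did 3 of 3 erythroid and 2 of 4 fibroblast genes, and 1 of 5 hepatocyte genes fell (96469.7 to 154997 against 39841 to 91339.7). In adipose tissue, 4 of 4 B cell genes rose (2.96 to 15.1 against 10.98 to 150.04), 1 of 5 macrophage genes rose (614 to 1413 against 861 to 4852), and 2 of 4 endothelial genes fell (551 to 1250.4 against 338 to 654). In muscle, 4 of 4 fibroblast genes fell (855 to 1210.1 against 452 to 787), as did 3 of 5 macrophage genes. Of 8 genes of heat shock and temperature in muscle, 5 fell, led by *Hspa1b* (-4.82) and *Hspa1a* (-4.36), and 1 rose. *Hspa1b* varied widely among the young muscles, at 106, 4038, 139 and 1071 in mice A, B, C and D. Proliferation genes rose in adipose tissue (3 of 4), and no marker of pancreatic acini passed the filter in any tissue. Their part in the changes of the splicing factors was not tested.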

How the data were processed

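RNA-seq of liver, omental adipose tissue and skeletal muscle was analysed for 27 *Mlx*KO samples. The deposited values are a signal: the authors aligned reads to the mouse genome in CLC Genomics Workbench and scaled the reads per gene for each sample (builds GRCm38.p6 and mm10 in the submitters' processing notes, other settings not given in the sources used here). The table is headed CPM, but sample sums ran from 559419 to 1395310, so the values were taken as a scaled signal and the tests planned for CPM were kept. Whole reads could be recovered for 100% of values (tolerance 0.1), with 14384695 to 25673919 reads per sample, which limit the precision of low genes by counting error only.

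Ages were compared within each tissue with limma 3.58.1 (R 4.3.3) on log2(value + 1), for genes that reached a value of 1 in 4 or more samples, and tissues in 1 fit over all 27 samples, with Benjamini-Hochberg adjustment over all genes and a threshold of 0.05. Every p printed is two-sided. Procedures were tested on simulated data. Of 100 genes given a log2 change of 0.5, 8 were called in liver, 1 in adipose tissue and 5 in muscle. Of 100 given a change of 1, the counts were 30, 14 and 57. The simulation changed far fewer genes than were called in the data, so these shares need not hold there. A member without a call may still have changed, and a call may be false. The alternatives were other pseudocounts, filters and scalings, edgeR 4.0.16 and DESeq2 1.42.0 on recovered reads, correction for the length and GC content of transcripts, a block for the mouse, and leaving out each sample. The 5-month mice gave all 3 tissues: deviations from group means correlated by 0.136 on average between tissues of 1 mouse (12 pairs) and by -0.0450 between mice (36 pairs). No replicates were duplicates (48 pairs, chi-square per degree of freedom 9.81 or more). Nothing states litters or cages, so p-values measure the spread between these mice.

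The members, marker genes and lists were chosen with earlier results of these data known. Genes named were, for each tissue, members past the threshold (up to 10), for each difference between tissues those past it, for levels the 5 widest and 3 narrowest spreads, and for each list of other splicing genes up to 3 past the threshold by size. Others were named after their values were seen. A gene that this rule names is not reported here. Lengths came from the reference transcripts, or from the span of the gene where that was shorter. The correction for length and GC content used the transcript alone. Shared sequence was counted in words of 50 bases.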

Additional observations from a re-analysis of the deposited data

Results flagged for a closer look

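Of 42 groups of 4 or 5 mice behind the members called between ages, 6 held a mouse whose distance from the rest was large against the range of its group, where chance gives about 1 in 20. In liver at 20 months, mouse 74 was lowest for *Sf3b2* (86.1, the others 115 to 124) and for *Hnrnpul2* (88.5, the others 118 to 127). Both genes passed between ages in liver without this mouse. In liver at 5 months, mouse B was highest for *Hnrnpf* (282, the others 259.5 to 262). In adipose tissue at 20 months, mouse 38, which also had the highest macrophage sum, was highest for *Sf3b5* (35.2, the others 26.6 to 28.6). In muscle at 20 months, mouse 56 was highest for *Sf3b1* (258, the others 185 to 196) and mouse 60 lowest for *Srsf4* (30.9, the others 39.9 to 43.5).

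In 16 cases the age change of a member differed between 2 tissues by the test of the difference itself. For the liver change minus the adipose change, the log2 differences were 0.90 for *Srsf4*, 0.59 for *Srsf2*, 0.75 for *Srsf11*, -0.42 for *Hnrnpr* and -0.31 for *Hnrnpk*. Liver minus muscle gave -0.84 for *Hnrnpr*, 0.97 for *Srsf4*, 0.54 for *Srsf2*, -0.50 for *Hnrnpll*, -0.44 for *Hnrnpul2*, -0.54 for *Sf3a1*, -0.43 for *Hnrnph2* and -0.41 for *Sf3b2*. Adipose tissue minus muscle gave 0.74 for *Sf3b1*, -0.42 for *Hnrnpr* and 0.65 for *Srsf9*. The part of cell composition, transcript length and the heat shock genes in these differences was not tested.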

How the results depend on the processing

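The number of members called between ages moved with the processing, and under the alternatives run within a tissue no called gene that is named and no median over the members reversed. Members without a call did turn: those below 0, 32 in liver and 27 in muscle, were 27 and 24 after quantile normalization and 20 in each after rescaling without the 20 most abundant genes. In liver, 8 became 18 with all 27 samples in 1 fit, 13 with median-of-ratios factors and 18 with DESeq2, and all 8 were among the genes called in each of these. In adipose tissue, 5 became 3 with no filter on low values, 12 with all 27 samples in 1 fit, 16 with DESeq2 and 11 with the length and GC trend removed. In muscle, 8 became 4 with no filter, 5 with all samples in 1 fit and 14 with the trend removed. With edgeR the counts were 10, 5 and 8. The calls over all genes in these fits are not given here. A gain or loss of calls among the members therefore cannot be told from one over all genes. The causes were not tested. The median change in liver, -0.20, was -0.12 after quantile normalization (2 higher, 5 lower) and -0.030 after rescaling without the 20 most abundant genes, and that in muscle, -0.09, was -0.011 after the same rescaling. This rescaling also raised the median over all genes in both tissues.

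Between tissues, rescaling left 3 members between liver and muscle (main value 8). The 3 between adipose tissue and muscle became 2 with a pseudocount of 0.1, 2 with median-of-ratios factors and 2 with no filter. For levels, rescaling gave 36 at 5 and 36 at 20 months between liver and adipose tissue (0 higher), and 36 at 5 and 34 at 20 months between adipose tissue and muscle (0 lower), with all-gene medians of -0.85, -0.68, 0.75 and 0.63. The split between liver and muscle became 10 higher and 13 lower at 5 months and 11 and 19 at 20 months. The replicate block for the mouse gave 5, 9 and 4 differing members, 24, 31 and 25 at 5 months and 14, 27 and 21 at 20 months, where *Srsf2*, *Hnrnph3*, *Hnrnph1* and *Hnrnpc* were gained between adipose tissue and muscle at 5 months (adjusted p up to 0.0480), *Srsf11* and *Hnrnpll* among the differences, and no other call changed.

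Leaving out 1 sample moved the calls in liver between 2 and 17, those in adipose tissue between 0 and 10, and those in muscle between 4 and 9. For differences between tissues the ranges were 3 to 6, 5 to 9 and 1 to 4. After *Srsf12*, the lowest value was 5.46, or 71 reads (*Srsf9* in the muscle of mouse A), so counting error adds to the spread of the lowest members. The call of *Sf3b6* in muscle rested on 86 to 161 reads per sample. The numbers of mice, 4 against 5, limited all members, and counts shared with pseudogenes stay uncertain.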

Other observations

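At 5 months the same 4 mice gave all tissues, and some members ordered these mice alike in each. The 2 highest values came from mice A and B in liver, adipose tissue and muscle for *Sf3b1*, *Hnrnpu* and *Srsf11*, as for 559 of all 15572 genes (3.59%). They came from C and D in each tissue for *Hnrnpr*, *Hnrnpd*, *Hnrnpdl*, *Srsf9*, *Hnrnpab* and *Srsf5*, as for 823 genes (5.29%). Each of the other 4 pairs of mice was highest in all 3 tissues for 24 to 34 genes (0.154% to 0.218%) and for no member. In muscle, for example, *Sf3b1* stood at 348 and 560.5 in A and B and at 279 and 328 in the others, and *Hnrnpr* at 24.97 and 23.1 against 29.3 and 27.2. What the pairs share is not given in the labels.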
